A study of Mus musculus with 4 samples.

Results

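Neuregulins, the epidermal growth factor (EGF) family ligands and their ErbB receptors were followed across the cells of mouse hindlimb muscle through 10 genes: the neuregulins Nrg1 and Nrg2, the EGF-type ligands Btc, Hbegf, Areg and Ereg, and the receptors Egfr, Erbb2, Erbb3 and Erbb4. They were taken by symbol from the 32285 genes of the count tables, and all 10 were found with 1 identifier each. Cells were taken from 2 hindlimb muscles, tibialis anterior and gastrocnemius, of male mice that were 2 months old, and material of 4 mice per genotype went into each sort. All mice, controls included, carried the S100GFP transgene, in which the S100B promoter drives green fluorescent protein (GFP). WT mice were S100GFPtg with intact Sod1, and Sod1KO mice were S100GFPtg Sod1-/-, which carry the knockout alleles of superoxide dismutase 1 in the germline and so in every tissue. Live cells were sorted into GFP+ and GFP- fractions, and each fraction of each genotype gave 1 library of droplet-based single-cell RNA-Seq. The groups were therefore WT GFP+, Sod1KO GFP+, WT GFP- and Sod1KO GFP-, with no replicate. A genotype difference below is therefore one between single libraries, and its 95% interval accounts for counting error alone.

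ErbB receptors are receptor tyrosine kinases of the cell surface that work in pairs. EGFR binds the EGF-type ligands, ERBB3 and ERBB4 bind neuregulins, ERBB2 has no known ligand of its own and serves as a partner, and ERBB3 has little kinase activity and relies on that partner. In nerve, neuregulin 1 on the axon acts on ERBB2 and ERBB3 of Schwann cells and governs their survival, migration and the thickness of the myelin they make. At the neuromuscular junction (NMJ), the same signal is known for maintaining the terminal Schwann cells (tSCs) that cap the nerve terminal. Neuregulin 1 of the axon comes from RNA in the nerve cell body, so a cell suspension of muscle does not sample that source.

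After a filter on detected genes and mitochondrial counts and removal of likely doublets, 4557 WT GFP+, 5925 Sod1KO GFP+, 1638 WT GFP- and 5143 Sod1KO GFP- cells were left, with median depths of 12290, 12952, 8019.5 and 14658 unique molecular identifiers (UMIs, each counting 1 captured RNA molecule) per cell. Clusters were named from lists of marker genes, and a class is called "like" the cell type whose markers it carries. Myelinating Schwann cell-like (mSC-like) cells numbered 1078 in WT GFP+ and 657 in Sod1KO GFP+, and tSC-like cells, which carry markers of nonmyelinating Schwann cells, numbered 380 and 885. The defining markers fitted these names, with Mbp at 5735 CPM (UMIs of the gene per 1000000 UMIs of the class) for WT mSC-like and 291 CPM for WT tSC-like cells, and Sox10 at 404 and 374 CPM. The GFP+ libraries also held tenocyte-like, smooth muscle-like, endothelial-like and other classes, so GFP fluorescence did not by itself mark Schwann cells. Cluster 8, with 308 and 321 GFP+ cells, carried myelin and perineurial markers together (leading genes Lgals7, Tenm2 and Slc6a13) and stayed unnamed, as did cluster 16 (Col22a1, Shisal2b and Ptx4). In the order just given, unnamed clusters held 27.23%, 30.87%, 58.3% and 36.2% of the cells. Of all 17263 cells, 56 shared a barcode with a cell of another library. Sod1 itself was read at 82.6 CPM in WT and 70.6 CPM in Sod1KO tSC-like cells; the deleted part of the gene is not stated in the sources, so reads from its 3' end neither check nor contradict the label.

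The ligand genes Btc, which encodes betacellulin, and Areg, which encodes amphiregulin, lie on the same chromosome. Both were past 2-fold higher in some Sod1KO classes, so the bases just before their start sites are shown. For Btc these were tSC-like cells, mSC-like cells and cluster 8, and for Areg macrophage-like cells and cluster 8. The Areg differences rested on few cells. Without the cell with the most UMIs in each library, the macrophage-like difference fell under 2-fold. In cluster 8, 1 cell held 11 of the 19 Sod1KO UMIs of Areg. On GRCm38.p6, Ereg spans chromosome 5 from 91074617 to 91093649, Areg from 91139599 to 91148432 and Btc from 91357261 to 91402994, with 45949 bases between Ereg and Areg and 208828 between Areg and Btc. The 250 bases before each start come from RefSeq on that build, 5' to 3' on the strand of the gene, at chr5:91402995-91403244 on the minus strand for Btc and chr5:91139349-91139598 on the plus strand for Areg. Capitals mark motifs found by a search of both strands for the cAMP response element TGACGTCA, the AP-1 element TGANTCA and the TATA box TATAAA; no 2 matches overlapped.
Btc promoter: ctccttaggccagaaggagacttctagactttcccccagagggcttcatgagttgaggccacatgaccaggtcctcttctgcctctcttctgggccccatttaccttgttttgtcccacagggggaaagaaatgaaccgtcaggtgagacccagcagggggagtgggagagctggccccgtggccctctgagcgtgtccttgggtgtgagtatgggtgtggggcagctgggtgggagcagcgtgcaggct
Areg promoter: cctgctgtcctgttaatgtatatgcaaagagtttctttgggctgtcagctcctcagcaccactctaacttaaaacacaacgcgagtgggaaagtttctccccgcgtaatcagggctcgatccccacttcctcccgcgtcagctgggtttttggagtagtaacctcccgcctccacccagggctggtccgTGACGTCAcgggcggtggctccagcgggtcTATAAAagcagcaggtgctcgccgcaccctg
The Areg window held the cAMP response element, starting 61 bases before the gene, and the TATA box, starting 31 bases before it. The Btc window held none of the 3 motifs. Among 32851 mouse promoter windows of this length, 1.55% held the cAMP response element, 6.75% the AP-1 element and 12.4% the TATA box. Windows for Erbb4, Erbb2 and Egfr were also matched and held none of the 3 motifs.

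The receptor Erbb3 was concentrated in Schwann-like cells. In WT GFP+ cells its level was 432 CPM (95% interval 416 to 449) in tSC-like cells, 146 CPM (138 to 156) in mSC-like cells and 74.9 CPM (68.1 to 82.2) in cluster 8, and each step in this order was larger than counting error. Schwann-like cells held 85.9% of the Erbb3 UMIs of the WT GFP+ library and 78.1% of those of Sod1KO GFP+, and 96.5% and 92.4% with cluster 8 added. The cycling cluster 27, which had 50 Sod1KO and 7 WT cells, stood at 252 CPM in Sod1KO. In non-neural classes Erbb3 was low, with 5 of 306 WT GFP+ endothelial-like cells holding an Erbb3 UMI against 360 of 380 tSC-like cells. Thinned to 2000 UMIs per cell, the shares of cells with a UMI were 0.656% for endothelial-like and 60.0% for tSC-like cells, at median depths of 11441.5 and 12175.5 UMIs before thinning and shares of 1.63% and 94.7%.

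**Figure D1:**
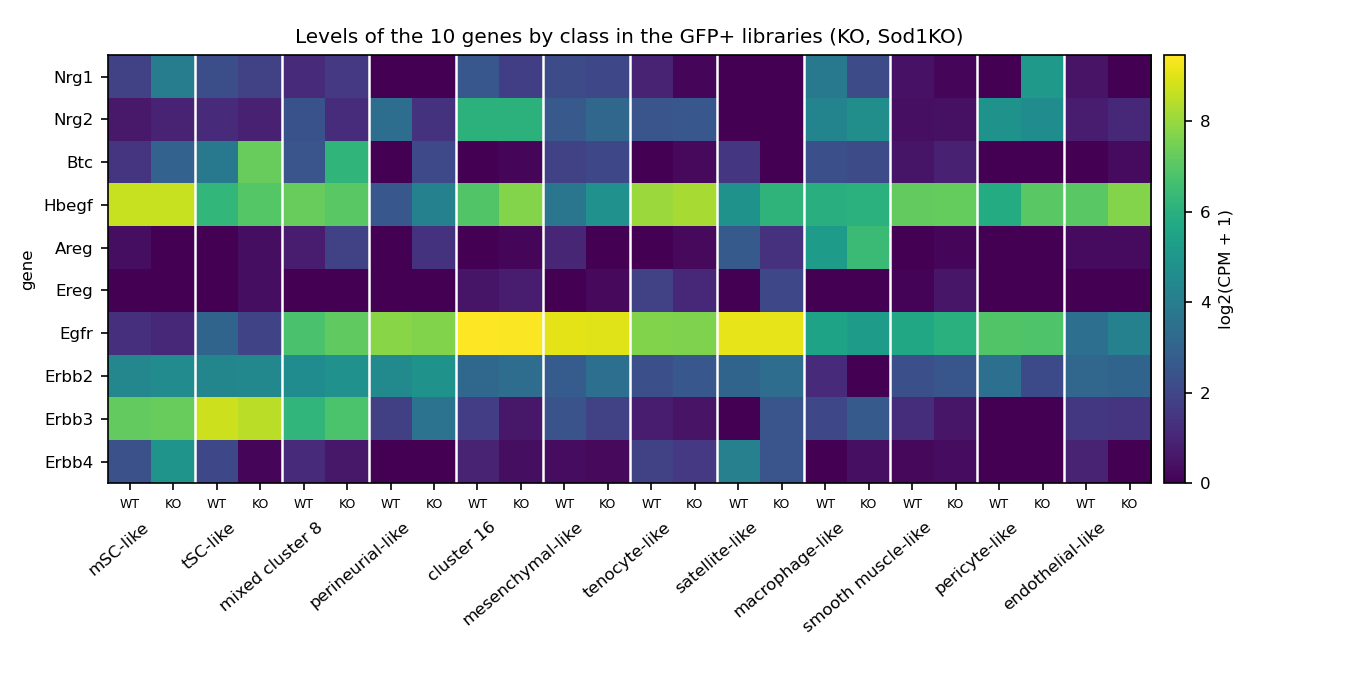
Levels of the 10 genes as log2(CPM + 1) in each cell class of the WT and Sod1KO (KO) GFP+ libraries, with 1 column per class and library. Erbb3 was high in mSC-like and tSC-like cells, Egfr was high in cluster 16, mesenchymal-like and satellite-like cells, and Btc was brighter in Sod1KO tSC-like cells and cluster 8 than in WT.

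Between genotypes, Erbb3 of tSC-like cells was 432 CPM in WT and 354 CPM (343 to 365) in Sod1KO, a log2 ratio of Sod1KO over WT of -0.29 (-0.36 to -0.22). It was 146 and 154 CPM in mSC-like cells, a log2 ratio of 0.08 (-0.07 to 0.22), so no difference was detectable there at this depth. In cluster 8 it was 74.9 and 110 CPM, a log2 ratio of 0.55 (0.38 to 0.72). Erbb3 was thus lower in 1 Schwann-like class, within its counting error in the other and higher in the mixed cluster, and none of the 3 differences reached 2-fold. The tSC-like class was held by different clusters in the genotypes, with 311 of 380 WT cells in cluster 11 and 547 of 885 Sod1KO cells in cluster 10, of which WT had 29. Within cluster 11, which both libraries filled, Erbb3 was 439 CPM in WT and 397 CPM in Sod1KO, a log2 ratio of -0.14 (-0.24 to -0.04). Over the tSC-like class, the summed level of the 12 tSC markers was also lower in Sod1KO, at 7029 and 4580 CPM, and its part in the Erbb3 difference was not tested.

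Erbb2, the partner receptor, was read in more classes and at closer levels. In WT GFP+ cells it was 23.0 CPM in cluster 8, 22.1 in perineurial-like, 20.1 in mSC-like cells and 19.2 in the tSC-like class, and neighbours in this order did not differ beyond counting error. In Sod1KO the same 4 classes had 26.3, 28.3, 22.9 and 20.2 CPM. Sod1KO over WT gave a log2 ratio of 0.19 (-0.19 to 0.57) for the mSC-like class and 0.07 (-0.26 to 0.41) for the tSC-like class. Erbb2 was read in 12 comparisons of a class between genotypes, lay above 0 in 9 of them and passed 2-fold in 0, with ratios from -0.68 to 0.80. Of these, only mesenchymal-like GFP+ cells had an interval clear of 0, at 5.81 CPM in WT and 10.1 in Sod1KO, a log2 ratio of 0.80 (0.07 to 1.57). The same class in the GFP- sort had the opposite sign, at 13.5 and 8.41 CPM from 9 and 81 UMIs. Its ratio was -0.68 (-1.68 to 0.50). A UMI of Erbb2 and one of Erbb3 met in the same cell in 23.2% of WT and 18.6% of Sod1KO tSC-like cells, for mSC-like cells in 6.96% and 8.52%, and in 24.4% and 34.6% of cluster 8. These shares follow depth as well as level, since mSC-like cells had median depths of 6238 and 6118 UMIs and cluster 8 of 18156.5 and 20882.

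Erbb4, the other neuregulin receptor, was sparse, with 366 UMIs over all 4 libraries, and its differences rested on few cells. In mSC-like cells 29 UMIs in 8 of 1078 WT cells stood against 126 UMIs in 19 of 657 Sod1KO cells, or 4.07 and 28.6 CPM, a log2 ratio of 2.81 (2.22 to 3.45). Of the 126 UMIs, 42, 34 and 20 were in 3 cells. Without the first cell of each library the ratio was 2.62 (1.93 to 3.37), and with cluster 32 left out, a shallow mSC-like cluster whose median depth was 0.353 of that of its library, it was 1.53 (0.84 to 2.24). In tSC-like cells the direction was the opposite, with 19 UMIs in 3 WT cells and 1 UMI in 1 Sod1KO cell, a log2 ratio of -5.11 (-10.49 to -2.46); 10 and 8 of the 19 UMIs were in 2 cells. Tenocyte-like cells held Erbb4 more evenly, with 38 UMIs in 18 of 501 WT cells and 47 in 24 of 1032 Sod1KO cells, a log2 ratio of -0.34 (-0.99 to 0.31). The gene is 1076693 bases long on chromosome 1, and counting by this version of Cell Ranger includes intronic reads by default, without separating them from exonic ones in the tables.

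Egfr had the opposite distribution to Erbb3 and was the receptor of the connective tissue and stem cell classes. In WT GFP+ cells it stood at 706 CPM (681 to 731) in cluster 16, 555 (494 to 621) in satellite-like cells, 545 (522 to 568) in mesenchymal-like, 218 in perineurial-like and 204 in tenocyte-like cells. The unnamed cluster 12 (Smim41, Saa1 and Trf) lay between, at 401 CPM in WT and 341 in Sod1KO. Cluster 16 was above satellite-like cells beyond counting error, and satellite-like and mesenchymal-like cells were not told apart. Schwann-like cells held 0.481% of the Egfr UMIs of WT GFP+ and 0.210% of those of Sod1KO GFP+. In the Sod1KO library the levels of the 5 classes named first were 687, 551, 509, 203 and 200 CPM in the same order, and the log2 ratios lay between -0.10 and -0.01. Only the mesenchymal-like ratio, -0.10 (-0.18 to -0.02), had an interval clear of 0. The intervals were wider for perineurial-like cells, at -0.46 to 0.26, and satellite-like cells, at -0.23 to 0.22. In these 2 classes a larger difference in either direction stays possible.

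Smaller pools of Egfr differed more. Smooth muscle-like GFP+ cells had 49.2 CPM in WT and 64.0 in Sod1KO, a log2 ratio of 0.38 (0.21 to 0.55), and cluster 8 had 106 and 140 CPM, a ratio of 0.40 (0.26 to 0.54). Endothelial-like GFP+ cells had 9.99 and 17.0 CPM, a ratio of 0.76 (0.22 to 1.32). In tSC-like cells 44 UMIs in WT stood against 31 in Sod1KO, or 7.35 and 2.85 CPM, a log2 ratio of -1.37 (-2.08 to -0.67), and within cluster 11 the ratio was -1.48 (-2.70 to -0.43). Thinned to 2000 UMIs, 1 of 375 WT and 2 of 878 Sod1KO tSC-like cells held an Egfr UMI, shares of 0.267% and 0.228%. The shares were 0.656% and 0.997% in endothelial-like cells and 0.373% and 0.307% in mSC-like cells, and the intervals of all of these overlapped. These thinned shares rest on few cells and cannot decide whether any of these 3 classes expressed Egfr. Unthinned WT levels were 1.40 CPM in mSC-like, 7.35 in tSC-like and 9.99 in endothelial-like cells, and background RNA was not measured. The ratios of the 3 classes are therefore values without a reading as a difference in expression.

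**Figure D2:**
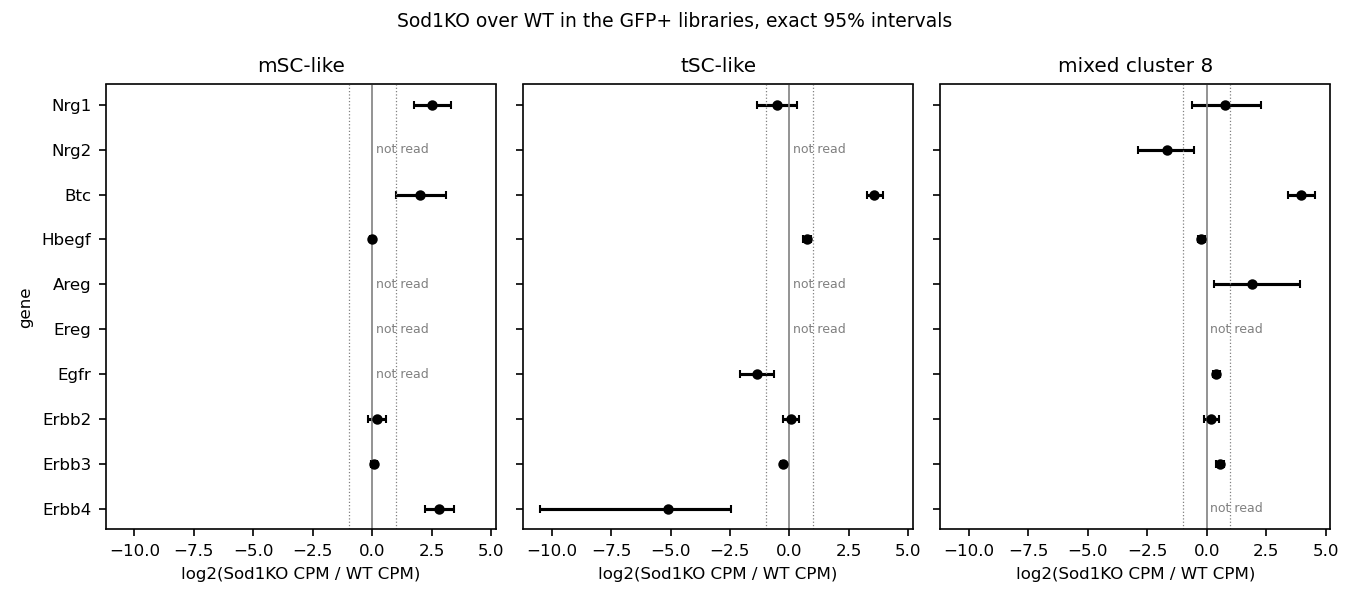
Log2 ratio of Sod1KO over WT CPM for each gene in mSC-like cells, tSC-like cells and mixed cluster 8 of the GFP+ libraries, with exact 95% intervals for counting error and dotted lines at 2-fold. Genes marked "not read" had under 20 UMIs in both libraries together. Btc lay far to the right in all 3 panels, and Erbb2 and Erbb3 lay within 2-fold. The Erbb3 interval was clear of 0 below it in tSC-like cells and above it in cluster 8.

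Among the ligands, Btc gave the largest genotype difference for which many cells contributed. Betacellulin is a membrane-bound ligand that is cut free and binds EGFR and ERBB4. Over all kept GFP+ cells, WT held 155 Btc UMIs and Sod1KO 2453, or 2.16 and 27.4 CPM. In tSC-like cells 78 UMIs in 52 of 380 WT cells stood against 1677 UMIs in 384 of 885 Sod1KO cells, or 13.0 (10.3 to 16.3) and 154 CPM (147 to 162), a log2 ratio of 3.57 (3.24 to 3.91). In cluster 8, 28 UMIs in 10 of 308 WT cells stood against 546 UMIs in 126 of 321 Sod1KO cells, or 4.67 and 72.2 CPM, a ratio of 3.95 (3.40 to 4.55). The mSC-like cells had 12 and 30 UMIs, or 1.69 and 6.81 CPM, a ratio of 2.01 (1.01 to 3.11). All 3 classes were higher in Sod1KO, with tSC-like cells holding 68.4% and cluster 8 holding 22.3% of the Btc UMIs of that library, and in the 2 other classes where Btc was read the difference was within counting error, with ratios of -0.17 (-1.55 to 1.22) for macrophage-like and 0.33 (-0.88 to 1.62) for mesenchymal-like cells.

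The WT tSC-like cells were the deeper, with a median of 12175.5 UMIs against 9524 in Sod1KO. With each cell thinned to 2000 UMIs, a Btc UMI was held by 11 of 375 tSC-like cells in WT and 177 of 878 in Sod1KO, 2.93% (1.47 to 5.19) and 20.2%, where the unthinned shares were 13.7% and 43.4%. In thinned endothelial-like cells the counts were 0 of 305 WT cells, which by a limit of 3 counts allows a share of up to 0.984%, and 0 of 301 Sod1KO cells, which allows up to 0.997%. The top cell held 48 of the 1677 UMIs, 50 cells held 50% of them, and without the top cell of each library the log2 ratio was 3.61.

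Within tSC-like cells Btc was uneven. In cluster 11 it was 9.13 CPM in WT (50 UMIs) and 19.8 CPM in Sod1KO (62 UMIs), a log2 ratio of 1.12 (0.56 to 1.68). Cluster 10 had 99.4 CPM in its 29 WT cells (23 UMIs) and 215 CPM in its 547 Sod1KO cells (1516 UMIs). Cluster 31 held 0 UMIs in 13 WT cells and 98 UMIs, or 212 CPM, in 88 Sod1KO cells. The difference over the class thus came mainly from cells of clusters that the Sod1KO library filled, and with clusters left out that drew over 80% of their cells from 1 library, the ratio was 0.96.

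A second clustering of the Schwann-like cells alone, made without the 10 genes, placed Btc more narrowly. Subcluster 5 had 0 WT and 78 Sod1KO cells, led by Olig1, Syt4 and Stc2, and Btc was at 766 CPM there, with a UMI in 77 of the 78 cells. Its 77 tSC-like cells were 8.70% of the Sod1KO class and held 52.5% of the Btc UMIs of the class, but 7.78% of the Erbb3 UMIs. Subcluster 1, with 41 WT and 540 Sod1KO cells, had 48.4 and 98.6 CPM of Btc, and subcluster 2, with 302 and 150 cells, had 9.46 and 16.6 CPM. In subcluster 1 cells without a UMI of the endothelial marker list, the intervals overlapped. Btc was 98.2 CPM (62.9 to 146) in 31 such WT cells and 107 CPM (98.6 to 116) in 464 such Sod1KO cells. With such a UMI it was 6.84 CPM in 10 WT and 62.1 CPM in 76 Sod1KO cells. Subcluster 4 had 0 UMIs in 12 WT cells and 178 CPM in 83 Sod1KO cells, and in the mSC-like cells subcluster 9, with 0 WT and 35 Sod1KO cells, had 42.6 CPM. Erbb3 did not follow Btc over these groups: in Sod1KO it was 261 CPM in subcluster 5, 373 in subcluster 1 and 384 in subcluster 2.

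**Figure D3:**
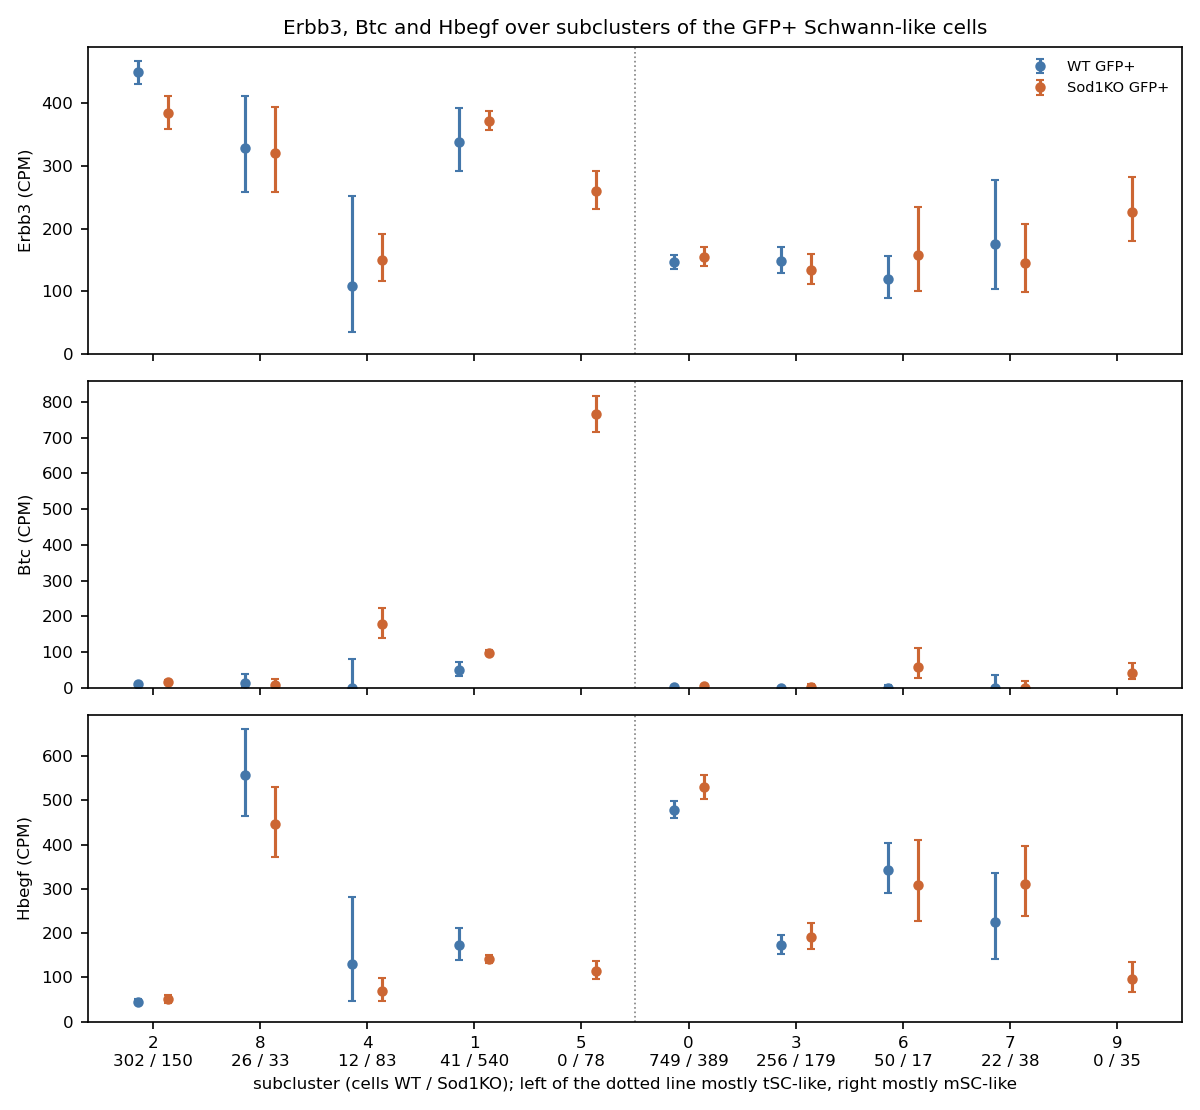
Erbb3, Btc and Hbegf in CPM over the 10 subclusters of the Schwann-like GFP+ cells, WT and Sod1KO, with exact 95% Poisson intervals. Btc reached 766 CPM in subcluster 5, which had no WT cell, while Erbb3 stayed between 108 and 450 CPM in all subclusters and Hbegf was highest in subclusters 8 and 0.

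Markers of other cell types moved with the tSC-like class as well. From WT to Sod1KO the summed level of the mesenchymal list went from 210 to 497 CPM, of the lymphatic endothelial list from 30.9 to 239, of the erythroid list from 15.9 to 1601 and of the endothelial list from 160 to 72.9, while the macrophage list was 5.01 and 8.65 CPM. Subcluster 1 was led by the endothelial genes Gpihbp1, Flt1 and Aqp1, and its summed endothelial list was 1619 CPM in WT and 96.4 in Sod1KO. A UMI of that list was held by 10 of its 41 WT and 76 of its 540 Sod1KO cells. In tSC-like cells with no such UMI, Btc was 14.5 CPM in 322 WT cells and 147 CPM in 743 Sod1KO cells. In those with at least 1 such UMI it was 7.45 CPM in 58 WT cells and 179.8 CPM in 142 Sod1KO cells. Malat1, a nuclear RNA, was 42038 CPM in WT and 25783 in Sod1KO tSC-like cells, and the mitochondrial share was 2.85% and 3.83%; their part in the Btc difference was not tested. In cluster 8 the 126 Sod1KO cells with a Btc UMI had 5049 CPM of the summed mSC list and 1973 of the tSC list, against 13242 and 1337 CPM in the 195 cells without one. The cells with a Btc UMI were also deeper, at a median of 25674.5 UMIs against 18698. Their summed perineurial list was 2350 CPM against 3201 and their Schwann list 2122 against 1719. The part of depth in this contrast was not tested. The summed mSC list of that cluster was 18083 CPM in WT and 9275 in Sod1KO.

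Hbegf, which encodes heparin-binding EGF-like growth factor, was the most widely read ligand, with 39919 UMIs over the 4 libraries. In WT GFP+ cells its level was 406 CPM (391 to 421) in mSC-like and 265 CPM (257 to 274) in tenocyte-like cells, then 152 in cluster 8, 145 in smooth muscle-like and 132 in endothelial-like cells. The mSC-like cells were above tenocyte-like cells beyond counting error, and cluster 8 and smooth muscle-like cells were not told apart. The mSC-like level was 406 CPM in WT and 405 in Sod1KO, a log2 ratio of -0.01 (-0.09 to 0.08), so these single libraries did not differ beyond counting error. Its 2 large subclusters differed in level, with 479 and 529 CPM in subcluster 0 and 173 and 192 CPM in subcluster 3.

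Over all classes Hbegf was read in 16 comparisons and lay above 0 in 14 of them, 8 with an interval clear of 0 and 6 with one that took in 0. It was below 0 in 2, the mSC-like class and cluster 8, and in cluster 8 the interval was clear of 0, at 152 CPM in WT and 131 in Sod1KO, a log2 ratio of -0.22 (-0.35 to -0.09). In tSC-like cells it was 75.2 and 126 CPM, a log2 ratio of 0.74 (0.58 to 0.90), but within cluster 11 it was 47.1 and 55.6 CPM, a ratio of 0.24 (-0.05 to 0.52). Cluster 16 had 117 and 209 CPM, a ratio of 0.84 (0.70 to 0.99). Endothelial-like cells were higher in both sorts, with 132 and 208 CPM for GFP+ (a ratio of 0.66, 0.51 to 0.81) and 98.0 and 133 CPM for GFP- (0.44, 0.32 to 0.56). The interval cleared 0 in each of these except cluster 11. Tenocyte-like cells, the class with the most Hbegf UMIs, had 265 and 295 CPM, a ratio of 0.15 (0.10 to 0.21). The comparisons of a sort draw on the same libraries, so a shared direction does not count as 16 separate observations.

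Hbegf passed 2-fold in 4 classes, all with few UMIs. Mesenchymal-like GFP+ cells had 48 and 142 UMIs, or 12.1 and 26.6 CPM, a ratio of 1.13 (0.65 to 1.64). Satellite-like cells had 15 and 45 UMIs, a ratio of 1.37 (0.50 to 2.32), and pericyte-like GFP+ cells 22 and 39, a ratio of 1.23 (0.44 to 2.06). Perineurial-like cells had 2 and 21 UMIs, a ratio of 1.79 whose interval, -0.24 to 4.93, took in 0, and with cells classed one by one from their markers it was -0.17. In the GFP- sort the Hbegf ratio was 0.35 (-0.49 to 1.32) for mesenchymal-like and 0.22 (-0.36 to 0.84) for pericyte-like cells. Hbegf is known to be induced quickly by stress, so a list of 11 dissociation-responsive genes (Fos, Jun and the like) was summed beside it. Over the 14 comparisons where Hbegf was above 0, that sum was lower in Sod1KO in 9 and higher in 5, and over all 16 its log2 ratio lay between -0.48 and 0.38. It was 9340 CPM in WT and 8816 in Sod1KO tSC-like cells and 13089 and 12511 CPM in endothelial-like GFP+ cells, and in cluster 16 it was 11008 and 13394 CPM. In the classes past 2-fold it was 9358 and 8743 CPM for mesenchymal-like GFP+, 17459.9 and 17854 for satellite-like, 14165 and 12879 for pericyte-like GFP+ and 11858 and 15427 for perineurial-like cells. Within the list, Hspa1a and Hspa1b were higher in Sod1KO tSC-like cells, with ratios of 1.36 (1.19 to 1.53) and 1.76 (1.49 to 2.05). The part of these genes in the Hbegf differences was not tested.

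**Figure D4:**
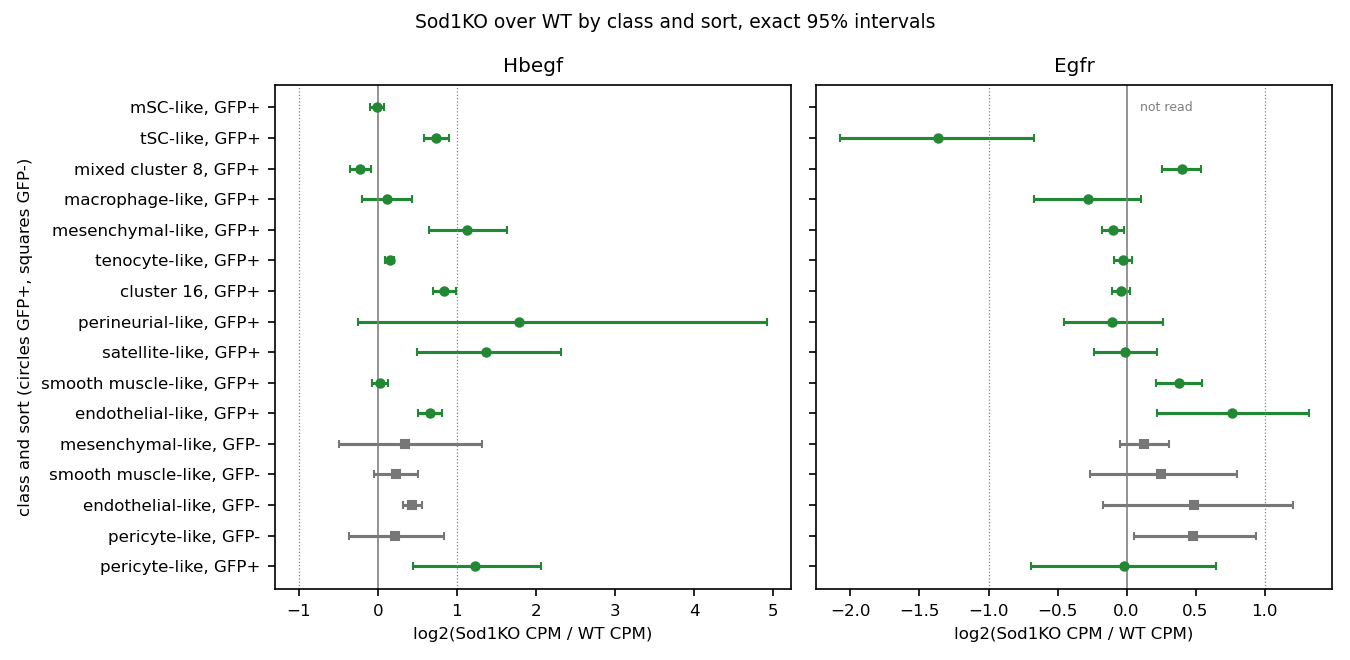
Log2 ratio of Sod1KO over WT CPM of Hbegf and Egfr in each of the 16 comparisons of a class and sort, with exact 95% intervals and dotted lines at 2-fold. Hbegf lay above 0 in 14 of 16 comparisons, 6 of them with an interval that took in 0, while Egfr lay above 0 in 7 of the 15 in which it was read.

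Areg was a ligand of macrophage-like cells. Amphiregulin binds EGFR and is made by several kinds of immune cell. In WT GFP+ macrophage-like cells 89 UMIs, or 35.2 CPM (28.3 to 43.3), were in 16 of 132 cells, and in Sod1KO 271 UMIs, or 86.5 CPM (76.5 to 97.5), were in 17 of 212 cells. The log2 ratio was 1.30 (0.95 to 1.66). A single Sod1KO cell held 107 of the 271 UMIs, 39.5%, and without the first cell of each library 70 and 164 UMIs gave a ratio of 0.92 (0.50 to 1.34), under 2-fold. The share of cells with a UMI was 12.1% in WT and 8.02% in Sod1KO, and after thinning 1.57% (2 of 127 cells) and 4.35% (9 of 207), so no order of the shares can be read. In cluster 8 Areg had 4 and 19 UMIs, a ratio of 1.91 (0.32 to 3.93), with 11 of the 19 in 1 cell.

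**Figure D5:**
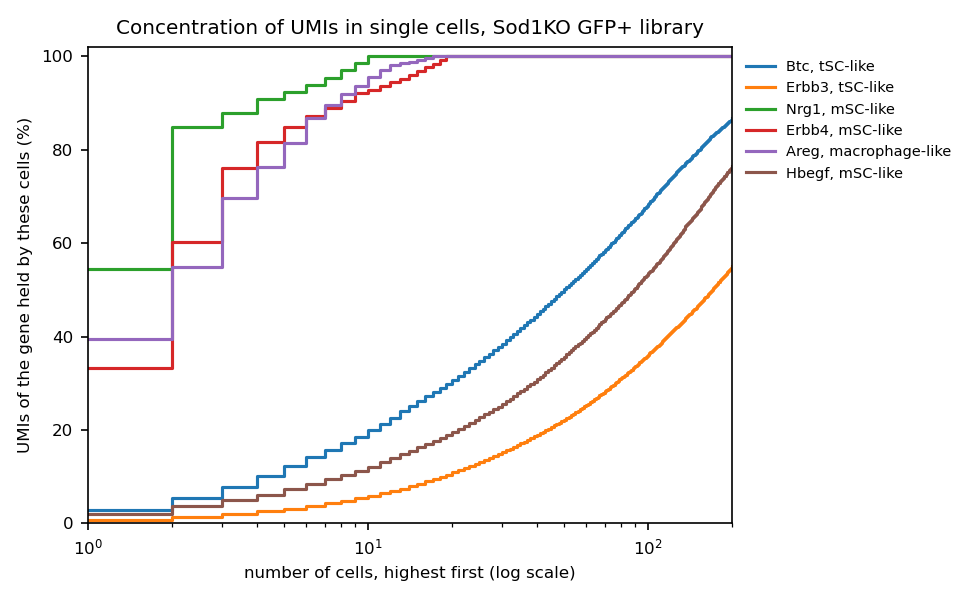
Share of the UMIs of a gene, in percent, held by the cells with the most UMIs, against the number of cells on a log scale, in the Sod1KO GFP+ library. For Nrg1 and Erbb4 in mSC-like cells and Areg in macrophage-like cells 1 or 2 cells held over 50% of the UMIs, while for Btc in tSC-like cells it took 50 cells.

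Ereg, the epiregulin gene, was the rarest of the 10, with 114 UMIs over the 4 libraries. It was read in tenocyte-like GFP+ cells only, where 38 UMIs in 12 of 501 WT cells stood against 26 in 21 of 1032 Sod1KO cells, or 2.52 and 1.10 CPM, a log2 ratio of -1.20 (-1.98 to -0.44). Sod1KO tenocyte-like cells of the GFP- fraction had 2.10 CPM from 18 UMIs, a log2 ratio of GFP+ over GFP- of -0.94 (-1.86 to 0.02), so the sorts of 1 genotype lay about as far apart as the genotypes. The WT GFP- library had 12 tenocyte-like cells and gave no comparison.

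Nrg1 was sparse, with 620 UMIs over the 4 libraries, and the counts do not separate its isoforms. Its highest GFP+ levels were in the unnamed cluster 34 (Bglap2, Mmp13 and Bglap), where 12 UMIs in 3 of 6 WT cells gave 56.5 CPM (29.2 to 98.8) and 91 UMIs in 6 of 34 Sod1KO cells gave 111 CPM (89.1 to 136). There 78 of the 91 UMIs were in 1 cell, and the WT cells were too few for a ratio. In mSC-like cells Nrg1 had 19 UMIs in 8 WT cells and 66 in 10 Sod1KO cells, a log2 ratio of 2.49 (1.73 to 3.31). As with Erbb4, 2 Sod1KO cells held most of them, with 36 and 20 UMIs, and without the first cell of each library the ratio was 1.90 (0.91 to 2.96). With cluster 32 left out it was 1.40 (0.52 to 2.31). The cell with 36 Nrg1 UMIs held 0 of Erbb4, and the cell with 42 Erbb4 UMIs held 0 of Nrg1. In tSC-like cells Nrg1 was spread over more cells, with 23 UMIs in 19 WT and 29 in 22 Sod1KO cells, a ratio of -0.53 (-1.37 to 0.33). Macrophage-like cells had 33 UMIs in 4 WT and 11 in 3 Sod1KO cells, a ratio of -1.89 (-3.03 to -0.87), with 17 of the 33 and 6 of the 11 in 1 cell each. Cluster 16 had 21 and 18, a ratio of -1.02 (-2.02 to -0.04), but 14 of the 21 and 11 of the 18 were in 1 cell each, and the 7 UMIs left in either library are too few to be read.

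Nrg2 was mainly a gene of cluster 16. There 66 of 105 WT and 147 of 256 Sod1KO GFP+ cells held a UMI, at 66.3 (58.9 to 74.5) and 67.5 CPM (61.7 to 73.6), a log2 ratio of 0.02 (-0.19 to 0.24). This cluster also had the highest Egfr of any class in both GFP+ libraries. Macrophage-like cells had 18.2 and 24.9 CPM of Nrg2, a ratio of 0.45 (-0.09 to 1.01), and tenocyte-like cells 4.70 and 4.90 CPM, a ratio of 0.06 (-0.38 to 0.51). In cluster 8 it was lower in Sod1KO, with 25 and 10 UMIs, a ratio of -1.66 (-2.88 to -0.55). In pericyte-like GFP- cells 1 WT UMI stood against 27, a ratio of 3.03 (0.43 to 8.39), while in the GFP+ fraction pericyte-like cells had 27.5 CPM in WT and 23.3 in Sod1KO, from 11 and 7 UMIs. The gene was thus at one level in both genotypes where it was abundant, and its differences past 2-fold came from counts under 30.

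Set beside all genes, the members past 2-fold were as follows, where a gene counted as read with at least 20 UMIs over both libraries of the comparison. Of the 6 members read in mSC-like cells 3 were past 2-fold (Nrg1, Erbb4 and Btc, all higher in Sod1KO), where 4.00% of all genes read were, and for the tSC-like class it was 3 of 7 (Btc higher, Erbb4 and Egfr lower), where 11.7% were. Of these 3, Erbb4 rested on 19 UMIs in 3 WT cells, and Egfr was low, with a ratio not read as a difference in expression. With 5% ambient RNA subtracted the count was 1. In cluster 8 it was 3 of 8 (Btc and Areg higher, Nrg2 lower), against 9.80%. Macrophage-like cells had 2 of 7 (Areg higher, Nrg1 lower), against 7.51%. Sparse genes pass a fixed fold more easily than abundant ones, and the 3 members past 2-fold in mSC-like cells had 66, 126 and 30 UMIs in Sod1KO.

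Among the other GFP+ classes 1 member was past 2-fold in each of mesenchymal-like (of 7, Hbegf higher, against 5.27% of all genes), tenocyte-like (of 7, Ereg lower, against 4.82%), cluster 16 (of 5, Nrg1 lower, resting on 1 cell in each library, against 5.22%), perineurial-like (of 3, Hbegf higher, against 10.7%), satellite-like (of 2, Hbegf higher, against 9.40%) and pericyte-like cells (of 2, Hbegf higher, against 11.8%). Smooth muscle-like GFP+ cells also had 1 of 4, against 5.25%. That gene was Erbb3, with 18 and 4 UMIs and a ratio of -1.48 whose interval, -3.51 to 0.12, took in 0 and whose sign turned under 3 other settings. Endothelial-like GFP+ cells had 0 of 3, against 4.54%. In the GFP- fractions it was 0 of 4 in mesenchymal-like cells (13.1% of all genes), 0 of 3 in smooth muscle-like (8.89%), 0 of 4 in endothelial-like (9.25%) and 1 of 3 in pericyte-like cells (9.16%), namely Nrg2. The median log2 ratio of the members read was 1.10 for mSC-like, -0.29 for tSC-like and 0.47 for cluster 8 cells, beside -0.03, -0.03 and 0.01 over all genes read.

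The rest of the pathway was followed through 35 genes, listed by role with earlier results of these data known. They were other ligands, the sheddases that release ligands, adaptors, feedback inhibitors and genes of receptor turnover. In mSC-like cells 29 of them were read and 0 were past 2-fold, and in cluster 8 it was 0 of 30. The shares over all genes read were 4.00% and 9.80%. In tSC-like cells 30 were read, 2 were past 2-fold higher and 1 lower, against 11.7% of all genes read, so the count did not stand above that share. Rhbdf2, which encodes a rhomboid pseudoprotease that helps the sheddase ADAM17 to mature, was 7.19 CPM in WT and 30.5 in Sod1KO, a log2 ratio of 2.08 (1.62 to 2.58). Tgfa, another EGFR ligand, had 5 and 23 UMIs, a ratio of 1.34 (-0.09 to 3.09), and the feedback inhibitor Spry4 was 48.3 and 24.0 CPM, a ratio of -1.01 (-1.26 to -0.76). Within cluster 11 the ratio of Rhbdf2 was 0.50 (-0.32 to 1.30) and that of Spry4 was 0.07 (-0.21 to 0.35). For Spry4 the 2-fold difference over the class was thus not seen within its shared cluster. The Rhbdf2 interval took in both 0 and values past 2-fold, so it cannot show whether Rhbdf2 differed there. Adam17 itself was 240 CPM in WT and 151 in Sod1KO tSC-like cells, a ratio of -0.67 (-0.78 to -0.57).

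Elsewhere few genes of the list were past 2-fold. Of 30 read in tenocyte-like GFP+ cells, Egf and Nrg4 were higher, with 16 and 22 UMIs in Sod1KO. The macrophage-like, mesenchymal-like GFP+, cluster 16 and smooth muscle-like GFP+ comparisons had 0. Higher in Sod1KO were Socs5 in perineurial-like, Dusp6 in satellite-like, Lrig1 in endothelial-like GFP+, Gab1 in pericyte-like GFP+ and Lrig2 in pericyte-like GFP- cells. Lower were Dusp4 in pericyte-like GFP+, Spry2 and Dusp6 in pericyte-like GFP-, Spry2 and Spry4 in smooth muscle-like GFP-, Rnf41 in mesenchymal-like GFP- and Nrg4 in endothelial-like GFP- cells, the last at 7.84 and 2.15 CPM, a ratio of -1.87 (-2.45 to -1.29). The feedback inhibitors below 0 in the GFP- fractions rest on 51 WT pericyte-like and 40 WT smooth muscle-like cells.

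The sort offered a comparison within each genotype. Hbegf of endothelial-like cells was higher in GFP+ than in GFP-, with a log2 ratio of 0.43 (0.27 to 0.59) in WT and 0.65 (0.54 to 0.75) in Sod1KO. Egfr of these cells was 9.99 CPM in GFP+ and 3.34 in GFP- for WT and 17.0 and 4.68 CPM for Sod1KO. As above, these low levels are not read as a difference in expression. Over all kept cells Egfr was also higher in GFP+, at 157 and 51.3 CPM in WT and 191 and 118 CPM in Sod1KO, and the part of free RNA in the endothelial-like values was not tested. In Sod1KO macrophage-like cells Egfr was lower in GFP+, at 36.4 and 103 CPM, a ratio of -1.50 (-1.91 to -1.10), and in satellite-like cells it was higher, at 551 and 296 CPM, a ratio of 0.90 (0.61 to 1.19). In tenocyte-like cells of Sod1KO Egfr was 200 CPM in GFP+ and 203 in GFP-.

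The genes whose pattern was most like each member were sought over the 69 groups of class and library with at least 30 cells, by the Pearson correlation of log2(CPM + 1) among 8963 genes that reached 50 CPM in a group. Groups share libraries, so the values are a description. Erbb3 was closest to Gpr37l1 (0.95), Gm12688 (0.93) and Igsf11 (0.93). Btc was closest to Kcnj10 (0.84), which is among the tSC markers, and then to Tafa2 (0.80) and Kcna6 (0.79). Areg was closest to Ms4a7, Dok2 and Ms4a6b (0.88 each) and Egfr to Sh3rf3 (0.86), Mrc2 (0.83) and Gli2 (0.82). The remaining members had lower values, with Hbegf closest to Ppm1l (0.75), Erbb2 to Rnf24 (0.70), Nrg2 to Clint1 (0.70), Erbb4 to Mfsd2a (0.63) and Nrg1 to Edil3 (0.59). Ereg had too few UMIs for this comparison.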

How the data were processed

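The authors deposited filtered count tables of UMIs per gene and cell. The file headers name Cell Ranger 7.1.0, the labels name mm10 and the study's methods name another version and 2 builds, so the build of the counts is uncertain. The authors' ambient RNA, doublet, integration and Seurat steps (DecontX, DoubletFinder, Harmony) were not used here, and classes were rebuilt.

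Cells needed more than 200 genes and under 10% mitochondrial UMIs. Doublets were removed at 0.8% per 1000 barcodes, by scores over 50 neighbours. The WT libraries held 81320146 (GFP+) and 21959719 (GFP-) UMIs, those of Sod1KO 105954116 and 101410418. Leiden clustering (scanpy 1.11.5, leidenalg 0.10.2, resolution 1; 0.5 for Schwann-like cells alone) used 2000 genes and 30 components, without the 10 genes and the 35 pathway genes. A name needed 3 markers above 20 CPM and 2 times the other clusters, limits set after a look at the clusters. Of the unnamed clusters, 8 and 16 were compared, chosen after their levels were seen.

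UMIs were summed per class and library as CPM. A ratio was read with at least 20 UMIs over both libraries and 30 cells in each, with 3 UMIs in place of a count of 0. Intervals are exact (Poisson, Clopper-Pearson and conditional binomial, scipy 1.17.1); PCR duplicates are collapsed by UMI, and the intervals cover counting error only. With 1 library per group no test was possible, and 2-fold was the rule of size. All 10 genes were reported in each class, the pathway genes past 2-fold were named, and the 3 most alike genes were listed for members with 200 UMIs. Members, lists and rules were chosen with earlier results of these data known. The interval method was tested on simulated data, and 13 other settings were tried, of which 2 were chosen after seeing the data. Shares of cells were compared after thinning to 2000 UMIs. One marker value is not reported here.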

Additional observations from a re-analysis of the deposited data

Results flagged for a closer look

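Several levels fell outside the comparisons because the WT library of the same sort had under 30 cells of the class. No difference can be read from them. Those listed here had a Sod1KO interval wholly above the WT interval. Their shared direction therefore follows from how they were listed and is not a result. Nrg1 was 114 CPM in cluster 16 of Sod1KO GFP-, where 1 of 42 cells held all 143 UMIs and 5 WT cells held 0. Areg was 137 CPM in macrophage-like cells of Sod1KO GFP-, where 1 of 77 cells held all 131 UMIs and 23 WT cells held 0. In the GFP+ libraries, cluster 27, a cycling cluster with Ube2c among its leading genes, had 88.3 CPM of Btc in 50 Sod1KO cells, 28 of which held a UMI, against 1 UMI in 7 WT cells, and it had 84.9 CPM of Hbegf against 22.9 CPM in WT. Hbegf was 105 CPM in cluster 34 (Bglap2, Mmp13 and Bglap) of Sod1KO GFP+ against 23.6 CPM in WT, and 104 CPM in lymphatic endothelial-like cells of Sod1KO GFP- against 32.2 CPM in 15 WT cells. Tenocyte-like cells of Sod1KO GFP- had 249 CPM of Hbegf and 203 CPM of Egfr, against 189 and 130 CPM in 12 WT cells. Erbb2 was 31.4 CPM in perineurial-like cells of Sod1KO GFP-, where 6 WT cells held 0 UMIs.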

How the results depend on the processing

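Settings were changed singly. The counts of members past 2-fold stayed within 1.5 times of the value above in 119 cases and moved further in 25. With the per-cell marker rule the count was 5 in mSC-like, 3 in mesenchymal-like GFP+, 2 in perineurial-like, 0 in smooth muscle-like GFP+ and 1 in endothelial-like GFP- cells. Subtracting 5% ambient RNA gave 1 in tSC-like, 0 in perineurial-like, 0 in smooth muscle-like GFP+ and 1 in endothelial-like GFP+ cells. Leaving out clusters over 80% from 1 library gave 1 in tSC-like cells. The stricter cell filter gave 2 in tenocyte-like, 0 in smooth muscle-like GFP+ and 1 in endothelial-like cells of either sort. A minimum of 50 UMIs gave 1 in macrophage-like, 0 in perineurial-like and 0 in smooth muscle-like GFP+ cells. The mean of per-cell CPM gave 1 in macrophage-like and 1 in endothelial-like GFP+ cells, no doublet removal 2 in tenocyte-like cells, and resolution 2 gave 1 in endothelial-like GFP- cells. Leaving out the cell with the most UMIs, a setting chosen after seeing the data as was that without cluster 32, gave 1 in macrophage-like and 0 in tenocyte-like, perineurial-like and smooth muscle-like GFP+ cells. Of the ratios 603 moved little, 42 moved further and 5 reversed. Hbegf in perineurial-like GFP+ cells was -0.17 with the marker rule and -0.23 at resolution 2, and Erbb3 in smooth muscle-like GFP+ cells was 0.26 with the stricter filter, 0.86 without doublet removal and 0.43 with the marker rule. The causes were not tested. Over the settings the log2 ratio ranged from 0.96 to 3.64 for Btc in tSC-like cells, from 1.10 to 2.83 for Erbb4 and 1.40 to 2.63 for Nrg1 in mSC-like cells, from 0.60 to 1.37 for Areg in macrophage-like cells, and from -0.32 to -0.15 for Erbb3 in tSC-like cells. Median-of-ratios scaling shifted the classes it was run on by -0.11 to 0.03, enough to turn the sign of the near-0 ratios of Egfr in satellite-like and Hbegf in mSC-like cells. No paired analysis was possible because each group had 1 library. The WT GFP- library was the shallowest, so small WT classes there limit what could be read.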
